A study of Mus musculus with 5 samples.

Results

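The trimethyl mark H3K4me3 was mapped in mouse epiblast stem cells and gave 27970 peaks on chromosomes 1 to 19. These are all the peaks for those chromosomes in a deposited list of 28941, from a series whose 4 peak lists hold 156288 peaks. The cells were EpiSC9, 1 line of primed pluripotent cells, cultured with FGF2 at 10 ng/ml over a feeder layer of irradiated mouse embryonic fibroblasts. Chromatin from 5000000 crosslinked cells was precipitated with a rabbit antibody to H3K4me3, and the labels name no genetic change, treatment or time course. Feeder cells share the dish, and the peak list carries no gene names, so neither the labelled cell type nor the feeder share was checked against marker genes. There was 1 library and no replicate, so each value describes this list without a test. Its read total is unknown. Intervals in parentheses are 95% Wilson intervals that cover counting over peaks only.

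H3K4me3 is trimethylation of lysine 4 of histone H3, written by the SET1 and MLL complexes and found on the nucleosomes around active and poised transcription start sites, above all at CpG islands. The start site itself is often free of nucleosomes, so the mark tends to flank it on either side. Very broad H3K4me3 regions are known from genes that define a cell's identity. Intervals are given on mm9, and no sequence or annotation of that build was used here.

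On a log scale, peak widths had 2 overlapping modes. A narrow one lay between 251 and 282 bp, with 1249 peaks, and a wide one between 1413 and 1585 bp, with 1729 peaks. The dip between them was shallow, with 927 peaks from 501 to 562 bp. These are counts over equal steps of log width, which span more bp at larger widths. Per bp, the count was highest in the narrow step, lower in the dip step and lowest in the wide step. It did not fall steadily between the dip and the wide step, with a slight rise around 1000 bp. The median over all peaks was 987.5 bp (quartiles 444 and 1647 bp), the narrowest peak measured 135 bp and the widest 8039 bp. Together the peaks covered 32.5 Mb.

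**Figure D1:**
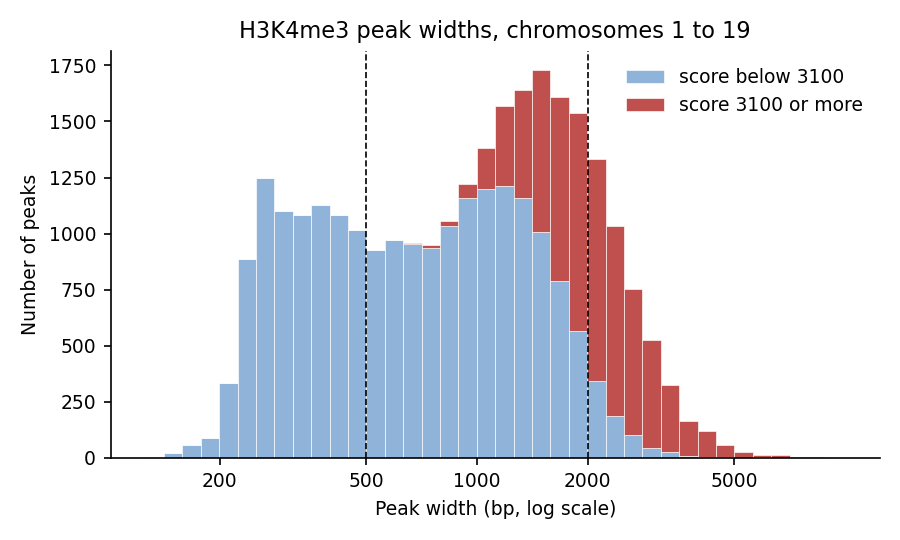
Number of H3K4me3 peaks on chromosomes 1 to 19 by width in bp (log axis), with peaks scoring below 3100 in blue and those at 3100 or more stacked in red; dashed lines stand at 500 and 2000 bp. No peak under 500 bp reached 3100, and red makes up most of the bars beyond 2000 bp.

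Narrow peaks, taken as those under 500 bp, were many but held little of the marked length. They numbered 8021 (28.7%, 28.2 to 29.2), at a median of 325 bp, and covered 8.26% of the H3K4me3 length. Their scores were low: the median was 76.9, near the lowest score in the list, 50.01, and 65.9% scored under 100. Conversely, 97.7% of the 5414 peaks that scored under 100 were narrow. Nearly all of the weakest peaks were thus narrow, while 34.1% of the narrow peaks scored 100 or more. Narrow peaks were 12.1% of peaks scoring 100 or more and 0.236% of those at or above the median score.

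Broad peaks, at 2000 bp or wider, formed the opposite end. They numbered 4345 (15.5%, 15.1 to 16.0), with a median width of 2455 bp, and held 35.6% of the covered length. They made up 30.9% of the higher-scoring 50% of peaks, and 30.5% of regions once neighbouring peaks were joined as described further on. Of the 4345 broad peaks, 3638 (83.7%, 82.6 to 84.8) scored 3100 or more. The 233 peaks of 4000 bp or wider (0.833%) reached that score in 222 cases (95.3%). Between the 2 ends lay 15604 peaks (55.8%), whose medians were 1147 bp in width and 1408 in score.

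Scores were assigned by the authors on a scale that the labels and the file do not state. The score rose with width over the whole range below 3100. Spearman's rho between width and score was 0.91 across the 20674 peaks under that score. It is given without p because peaks of 1 library are not replicates. The median score was 58.2 under 300 bp, 102.7 from 300 to under 500 bp, 429.4 from 500 to under 1000 bp and 1847 from 1000 to under 1500 bp. From 1500 bp upward the median was 3100 in every width band.

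Scores piled up at a single value. Exactly 3100 was given to 6958 peaks (24.9%, 24.4 to 25.4), and 338 more scored above it, up to 3233.06, which 8 peaks shared. In all, 7296 peaks (26.1%, 25.6 to 26.6) stood at 3100 or more, and they covered 47.9% of the H3K4me3 length. The scores on either side of the pile were thinly filled and similar in number, with 123 peaks within 50 below 3100 and 131 peaks within 50 above it. Apart from the pile itself, the counts thus did not step at 3100.

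Peaks at exactly 3100 were also wider than those scored close to it. Their median width was 2017 bp (quartiles 1597 and 2541 bp). The 247 peaks from 3000 to under 3100 had a median of 1574 bp, and the 338 above 3100 had a median of 1659.5 bp. The score gave no order within the pile, whereas the widths of peaks at 3100 or more ranged from 601 to 8039 bp. Because the scale is not stated, scores above 3100 cannot be read as stronger peaks than those at exactly 3100.

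**Figure D2:**
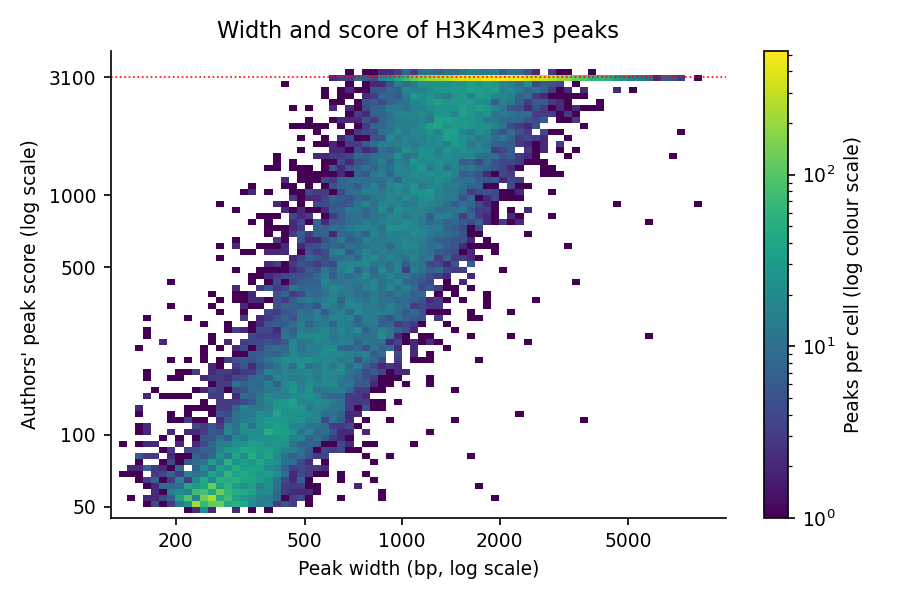
Width (bp, log axis) against the authors' score (log axis) for H3K4me3 peaks, coloured by the number of peaks per cell on a log colour scale; the dotted red line marks 3100. A broad diagonal band ends in a horizontal line at 3100 that runs from 601 to 8039 bp, and a few peaks lie far to the right of the band.

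The share of peaks at 3100 or more climbed steeply across a narrow range of widths. It was 1.72% from 500 to under 1000 bp, 24.99% from 1000 to under 1500 bp and 54.6% from 1500 to under 2000 bp. It then reached 81.1% from 2000 to under 3000 bp and 92.7% from 3000 to under 4000 bp. Strong but compact peaks were rare: the narrowest at 3100 was a 601 bp peak at chr10:114687931-114688531, 79 bp from its neighbour. The highest score among narrow peaks was 2926.74, at chr11:120208591-120209030 (440 bp), and 26 of 8021 narrow peaks scored 1000 or more.

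A few broad peaks were weak, and they lay in few places. Only 9 of 4345 broad peaks scored under 500. Of these, 4 lay on chromosome 11 below 3.1 Mb and 3 on chromosome 7 within a span of 20.0 kb. The remaining 2 were at chr17:39979945-39983682 (3738 bp, score 113.33) and chr16:3233279-3235542 (2264 bp, score 120.04). These places were singled out after their values were seen.

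The chromosome 11 group lay at the start of the peaks on that chromosome. From 3000191 to 3100227 it held 29 H3K4me3 peaks that covered 68.6 kb of a 100.0 kb span, including 6 of 4000 bp or wider, and none scored 3100. Its median score was 325.2 and its highest 1823.81. Neither H3K4me1, H3K27ac nor H3K27me3 had a peak in this span (0 of each). Mappability and copy number were not tested for this group. In the rest of the 19 chromosomes, 5 of the other 227 peaks of 4000 bp or wider scored below 3100.

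The 5 widest peaks belonged to both kinds. The widest, chr18:55144889-55152927 (8.04 kb, score 3100), stood alone, with its nearest neighbour 31921 bp away. The peak at chr19:5797091-5804314 (7.22 kb, score 3100) had a neighbour at 34 bp and lay in a 1-Mb bin with 73 peaks. The third of those scoring 3100, chr14:106291446-106298648 (7.20 kb), had one at 155 bp in a bin with 9 peaks. Both others lay in the chromosome 11 group, at chr11:3061982-3069999 (8.02 kb, score 915.92) and chr11:3090095-3097214 (7.12 kb, score 1823.81).

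On a log scale, gaps between neighbouring peaks had 2 separate modes. The shorter mode fell between 79.4 and 100.0 bp (534 gaps) and the longer between 39.8 and 50.1 kb (1262 gaps). A trough between 794 and 1000 bp, with 182 gaps in a step of the same log width, separated them. Per bp, the count fell from the shorter mode to the trough and again to the longer mode. Of 27951 gaps, 7365 (26.3%, 25.8 to 26.9) were under 1000 bp, with a median of 76 bp. Among peaks scoring at or above the median of the list, the share of such gaps was 9.29%. The other 20586 gaps had a median of 36.5 kb.

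**Figure D3:**
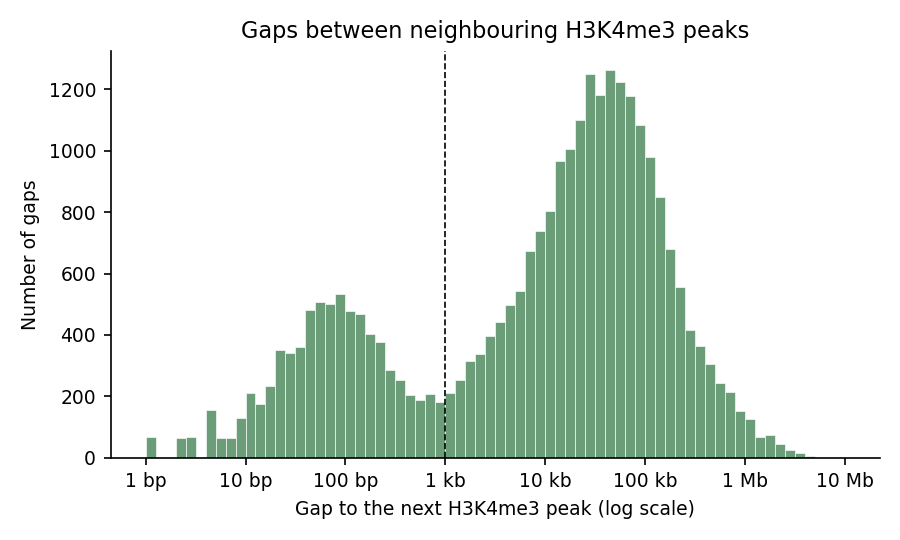
Number of gaps by length, from the end of each H3K4me3 peak to the start of the next on the same chromosome, in equal steps of a log axis; the dashed line marks 1 kb. Short gaps peak just under 100 bp and long ones near 40 to 50 kb, with few gaps close to 1 kb.

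Short gaps were mostly very short. Among those under 1000 bp, 5669 (77.0%, 76.0 to 77.9) measured under 200 bp, 2737 measured under 50 bp and 618 under 10 bp. Only 579 gaps lay from 500 to under 1000 bp. Joining peaks across gaps under 1000 bp turned the 27970 peaks into 20605 regions. Of these, 5751 (27.9%, 27.3 to 28.5) held more than 1 peak, and they contained 13116 peaks, 46.9% of the list. Regions of 4000 bp or wider were built from several peaks in 637 of 756 cases (84.3%), so most long joined regions are not single rows of the list. Joining lengthens regions by itself.

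The first rows of the list show such a split. The peak at chr1:3660201-3661718 (1518 bp, score 3100) was followed after 41 bp by a peak at chr1:3661760-3662797 (1038 bp, score 1913.41). No other peak lay within 1000 bp of this pair.

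Regions of 2 peaks, the commonest kind of split, were described by sorting each pair into a wider and a narrower peak. There were 4616, with a median gap of 70 bp. The wider peak had a median of 1339 bp and a score of 2811, while the narrower had a median of 455.5 bp and a score of 181.1. In 1754 (38.0%) the wider peak was at least 3 times as wide as the narrower, and in 1057 (22.9%) it was under 1.5 times as wide. The wider peak had the higher score in 4201 (91.0%). Score rose with width over the whole list (rho 0.91), so sorting by width by itself favours this order. Pairs of unrelated peaks were not compared.

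Where a score of 3100 was reached, it was mostly by the wider peak alone, which the sorting by width also favours. In 1953 of the 4616 (42.3%) only the wider peak scored 3100 or more, in 153 (3.31%) both did, in 39 (0.845%) only the narrower did, and in 2471 (53.5%) neither did. Beside a wider peak at 3100 or more, the narrower peak had a median score of 363.1 and a median of 574 bp. The wider peak lay at the lower coordinate in 2315 (50.2%, 48.7 to 51.6). Gaps were of similar length in regions with a wider peak at 3100 or more (median 72 bp) and in regions with neither peak there (median 67 bp). Whether these gaps lie at transcription start sites was not tested.

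Regions of 3 peaks numbered 838 and had the widest peak in the middle in 341 (40.7%, 37.4 to 44.1). It was at the lower end in 249 (29.7%) and at the upper end in 248 (29.6%). Median widths were 606 bp at the lower end, 763.5 bp in the middle and 583 bp at the upper end.

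**Figure D4:**
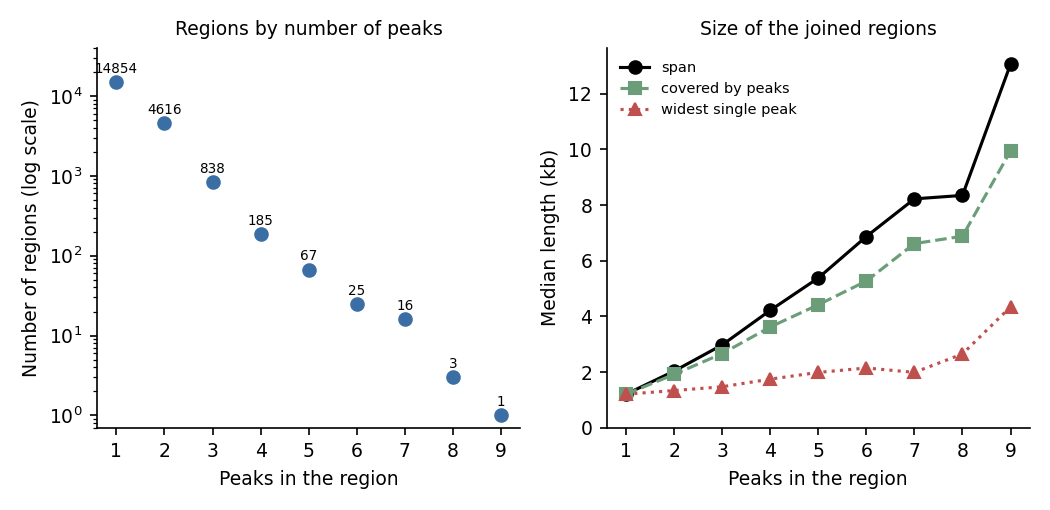
Left, the number of regions (log axis) by how many H3K4me3 peaks they held after joining gaps under 1000 bp. Right, the median span, length covered by peaks and width of the widest single peak in kb; the span grows from 1.21 kb for 1 peak to 5.38 kb for 5, while the widest peak grows only from 1.21 to 1.99 kb, and the points for 8 and 9 peaks rest on 3 regions and 1 region.

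With more peaks per region, the span grew faster than the widest peak, which follows from adding up peaks and gaps. The median span was 1208 bp for 1 peak, 2037 bp for 2, 2977 bp for 3 and 4219 bp for 4, whereas the median widest peak was 1208, 1339, 1474.5 and 1749 bp. The share with a peak at 3100 or more was 29.6% for single peaks, 46.5% for 2 and 48.2% for 3, and it was 38.9% for 4. A region was counted if any of its peaks reached 3100, so each further peak gave another chance. Even so, the share was below that for 3 peaks in regions of 5, 6 and 7 peaks. It was 37.3% of 67, 32% of 25 and 43.75% of 16 regions, in that order. Counted by peak, 39.7% of those at 3100 or more lay within 1000 bp of another, against 46.9% of all peaks. Regions of 5 or more peaks were rare, at 112.

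The region with the most peaks, chr11:118940014-118953070, held 9 in 13.1 kb. Its peaks measured, in order along the chromosome, 231, 519, 257, 1255, 4345, 468, 418, 309 and 2140 bp. Their scores in the same order were 51.54, 129.34, 52.79, 500.97, 3100, 117.05, 102.90, 66.27 and 2154.79. A single very broad peak thus lay among weak ones, with a second strong peak at the far end.

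The next regions, with 8 peaks each, differed in strength. At chr8:94878329-94891098 the first peak was 4271 bp wide and scored 3100, and the other 7 ranged from 52.6 to 1307 in score. Those at chr11:33096919-33104790 and chr11:118895653-118903999 reached only 1510.69 and 1930.12, with median peak widths of 486 and 801 bp. The latter ended 36.0 kb before the 9-peak region began. The fifth, chr1:75442469-75447372, had 7 peaks over 4.90 kb and no score above 611.53, and 15 other regions also held 7.

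By median, peaks with a neighbour within 1000 bp were narrower and scored lower than peaks standing further apart. Of narrow peaks, 56.2% lay within 1000 bp of another peak, against 46.1% of middle-sized and 32.7% of broad peaks. The share at 3100 or more was 22.8% for peaks with a neighbour under 100 bp away. It was lowest, at 19.6%, for those whose nearest neighbour was 1 to 5 kb away, and highest, at 35.3%, at 20 to 50 kb. Among the 180 peaks at least 500 kb from any other it was 23.3%, and 33.3% of them were narrow while 27.8% were broad. Peaks with a neighbour under 100 bp away were narrow in nearly the same share, 33.0%, but broad in 10.3%.

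Neighbours resembled each other little in score. Spearman's rho between consecutive scores was -0.06 over 7365 gaps under 1000 bp and 0.12 over 18141 gaps of 5000 bp or more. For widths the values were -0.14 and 0.07. These are descriptions over overlapping pairs of 1 library, and correlations this weak are no finding.

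Along the chromosomes the peaks were concentrated in part of the genome. Bins of 1 Mb, 2482 in all, held a median of 7 peaks (quartiles 2 and 16) and a mean of 11.3 ± 13.5 (SD over bins), so the variance was 16.1 times the mean. The densest 10% of bins, each with 27 or more peaks, held 38.0% of peaks (37.5 to 38.6). This interval treats peaks as independent and ignores that the bins were picked by the same counts. The densest 1%, 25 bins, held 6.86%, and 386 bins (15.6%) held 50% of all peaks. Counts in adjacent bins were related, with a Spearman's rho of 0.46 over 2406 adjoining bins, given without p.

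The densest bin was on chromosome 10 from 79 to 80 Mb, with 124 peaks in 75 joined regions, and the next, from 80 to 81 Mb on the same chromosome, held 116 peaks in 76 regions. Chromosome 7 from 52 to 53 Mb followed with 100 peaks, then chromosome 17 from 56 to 57 Mb with 86. The fifth, chromosome 11 from 96 to 97 Mb, held 84 peaks but was unlike the others in strength. Its median score was 251.1 and 4 of its peaks (4.76%) scored 3100 or more, against 19.8% to 25% in the other 4 bins.

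Dense bins often adjoined. The longest runs of bins with 27 or more peaks were 7 Mb long, on chromosome 15 from 97 to 104 Mb (317 peaks) and chromosome 17 from 23 to 30 Mb (306 peaks). Of 137 such runs, 72 were a single bin.

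Peaks were also compared by how many shared their bin. The median score was 1242 for peaks alone in a bin and 844.4 in bins of 40 or more. The share at 3100 or more was 22.6% for the 199 peaks alone in their bin, 27.5% in bins of 5 to 9 and 24.7% in bins of 40 or more. Broad peaks made up 25.1% of the peaks alone in a bin and 13.5% in bins of 40 or more, and narrow peaks 35.7% and 27.01%. Gaps under 1000 bp were 15.6% in bins of 2 to 4 peaks and 30.5% in bins of 40 or more, although crowding shortens gaps by itself.

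Chromosomes differed more in the density of peaks than in their width or score. Density ran from 7.995 peaks per Mb on chromosome 14 to 19.3 on chromosome 11, a 2.42-fold range. The median width ran only from 882 bp (chromosome 18) to 1052 bp (chromosomes 16 and 19), a 1.19-fold range, and the median score from 748.9 (chromosome 18) to 1087 (chromosome 16), a 1.45-fold range. Narrow peaks made up 24.2% to 32.9%. The share at 3100 or more lay between 23.6% and 30.7%, and that of gaps under 1000 bp between 23.2% and 29.0%.

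Peak-free stretches filled much of the remaining length. Stretches of 1 Mb or more between neighbouring peaks numbered 359, with a median of 1.48 Mb (quartiles 1.18 and 2.02 Mb). They added up to 617.8 Mb, or 24.996% of the length of the 19 chromosomes. Stretches of 100 kb or more, 5121 of them, took up 77.0%. By chromosome, those of 1 Mb or more covered between 16.3% (chromosome 11) and 34.1% (chromosome 12).

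**Figure D5:**
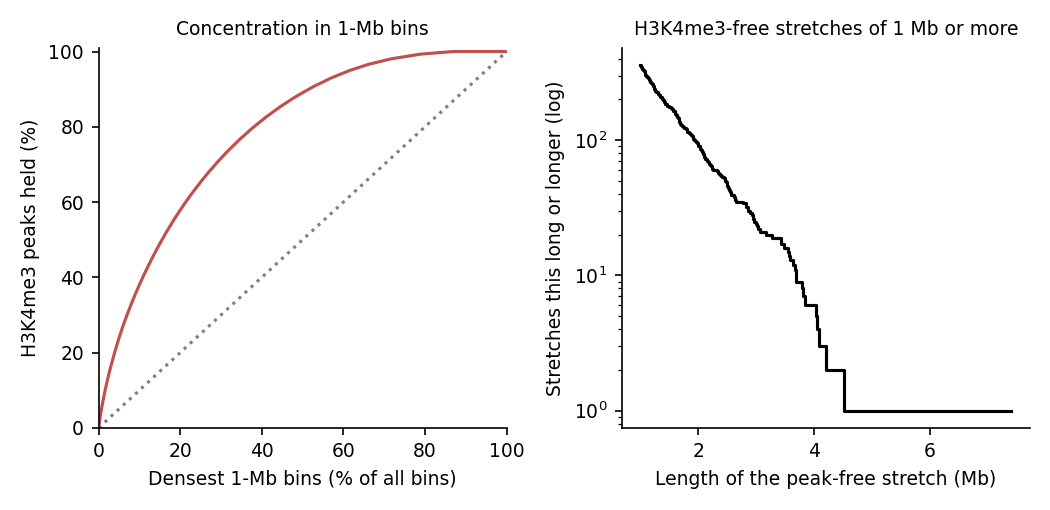
Left, the share of H3K4me3 peaks (%) held by the densest 1-Mb bins, from densest to emptiest, with the diagonal of equal counts dotted; the densest 10% of bins hold 38.0% of peaks. Right, the number of H3K4me3-free stretches between neighbouring peaks (log axis) at or above each length in Mb. Of these, 359 reach 1 Mb, 91 reach 2 Mb and 1 exceeds 5 Mb.

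Among stretches between neighbouring peaks, the longest stood apart from the rest. It ran for 7.40 Mb at chr7:39057259-46458311 and held 0 peaks of H3K4me1, H3K27ac or H3K27me3 as well. The next were chr18:25914352-30432035 (4.52 Mb), chr10:45298866-49502226 (4.20 Mb), chr17:59152953-63228514 (4.08 Mb) and chr7:20519131-24572988 (4.05 Mb). These held 21, 17, 32 and 3 peaks of the other lists, in that order. The length before the first peak of a chromosome was not counted, and on chromosome 14 it included 5 empty bins from 3 to 8 Mb. Assembly gaps and mappability were not tested for any stretch. Of all 359 stretches, 11 (3.06%) held no peak of any list, while 335 held H3K4me1, at 4.23 H3K4me1 peaks per Mb against 30.9 over the 19 chromosomes.

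Peaks that bordered these stretches were more often extreme in width than the list as a whole. So were peaks alone in a 1-Mb bin, at 35.7% narrow and 25.1% broad. Of the 681 bordering peaks, 33.2% were narrow and 20.3% broad, compared with 28.7% and 15.5% of all peaks, while 24.7% scored 3100 or more, compared with 26.1%. Only 37 peaks had such a stretch on both sides. Of these, 16 were narrow, 9 were broad and 8 scored 3100 or more.

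Bins without a peak numbered 330 (13.3%, 12.0 to 14.7), and 57 of them were the first 3 Mb of the 19 chromosomes, where no bin held a peak. That part of each mouse chromosome is unsequenced in assemblies such as mm9. The first peak began before 4 Mb on 18 of 19 chromosomes, earliest at 2999951 on chromosome 9, and at 8147545 on chromosome 14. From 3 Mb on, 273 of 2425 bins (11.3%) were empty. Counting only the higher-scoring 50% of peaks, 21.3% of all bins were empty.

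Beside the other 3 lists on the same chromosomes, H3K4me3 had the largest share of peaks at 3100 or more and the shortest widest peak. Peaks at 3100 or more were 26.1% of H3K4me3, 0% of H3K4me1, 3.08% of H3K27ac and 0.595% of H3K27me3 peaks. The widest H3K4me3 peak, 8039 bp, was shorter than the widest of H3K4me1 (21769 bp), H3K27ac (13883 bp) and H3K27me3 (16250 bp). The typical peak was not the shortest: the median width was 987.5 bp for H3K4me3, 1543 bp for H3K4me1, 819 bp for H3K27ac and 477 bp for H3K27me3. Broad peaks made up 15.5%, 31.0%, 13.3% and 8.80% of these lists in the same order. Gaps under 1000 bp made up 26.3% for H3K4me3, 20.1% for H3K4me1, 27.5% for H3K27ac and 47.9% for H3K27me3. The densest 10% of bins held 38.0%, 30.9%, 32.6% and 48.9% of these lists in the same order. The lists come from different antibodies, their depths and the scale of their scores are unknown, and their differences were not tested.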

How the data were processed

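The list of H3K4me3 peaks gives an interval on mm9 and a score per peak, as the authors deposited it. Bowtie 0.12.9, MACS 1.4 and Cufflinks are named in the submitters' processing notes, without role or order. The sources used here give no control, handling of duplicate reads, threshold or scale of the score. Scores ranked and filtered peaks within a list, and the share at 3100 or more is given for each list without assuming a common scale. Deeper libraries give more and wider peaks.

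Rows for chromosomes 1 to 19 were kept. Gaps are the bases between consecutive peaks, and bins of 1 Mb count peak midpoints from position 1 to the last peak end over the 4 lists. The ends of chromosomes are not counted among stretches. Named regions are the 5 widest peaks, the 5 regions with the most peaks, the 5 densest bins and the 5 longest stretches. The members, lists and limits were chosen with earlier results of these data known. Coordinates are 1-based. The input sample was not analysed here. Python 3.11.15, numpy 2.4.6, pandas 2.3.3 and scipy 1.17.1 were used, with matplotlib 3.10.9 for plots, and the functions were tested on simulated data.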

Additional observations from a re-analysis of the deposited data

How the results depend on the processing

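No paired analysis was possible because each mark had 1 library. Score filters moved the narrow class most. With scores of 100 or more, narrow peaks were 12.1%, broad 19.3%, gaps under 1000 bp 20.9%, regions of several peaks 22.5%, peaks in the densest 10% of bins 39.3%, empty bins 17.9% and rho 0.82. At or above the median score these were 0.236% narrow, 30.9% broad, 9.29% short gaps, 39.4% in the densest bins and 21.3% empty. Joining peaks gave 17.0% narrow, 30.5% broad, 34.3% at 3100 or more and 36.8% in the densest bins. A ceiling at 3000 held 26.97%, narrow under 400 bp 21.4% and broad from 3000 bp 3.37%. Limits of 500 and 2000 bp gave 24.3% and 29.2% of gaps and 26.2% and 29.98% of regions with several peaks. Bins of 500 kb and 2 Mb held 42.0% and 34.7% in the densest 10% and were empty in 25.4% and 4.74%. Bins from 3 Mb on, added after the data were examined, gave 37.4% and 11.3%. Stretches of 2 Mb or more numbered 91. With X included, 25.4% scored 3100 or more. The other 12 of 43 alternatives stayed within the 95% interval, within 1.5 times a count or within 0.01 of rho. Depth is unknown, so weak peaks missed or added by depth cannot be told apart.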

Other observations

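Just before the 7.40 Mb stretch on chromosome 7, a group of 13 H3K4me3 peaks lay at chr7:38960784-39057258. They covered 24.8 kb of 96.5 kb, ranged in score from 65.7 to 3189, and included 5 broad peaks, 3 of which scored under 500. The span also held 9 H3K4me1 and 3 H3K27ac peaks and 0 H3K27me3 peaks. The group was singled out after its values were seen, and mappability and copy number were not tested.

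The narrow peaks comprised 4508 with a neighbour within 1000 bp and 3513 without. Medians were 333 bp and a score of 84.5 in the former, and 315 bp and 69.2 in the latter. Narrow peaks beside others and narrow peaks standing alone were thus close in width. Scores were somewhat higher in the former, with upper quartiles of 134.0 and 102.1. After joining, the 3513 lone narrow peaks were the only regions under 500 bp, 17.0% of 20605.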
